A study of Mus musculus with 2 samples.

Results

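Scavenger receptors are cell surface proteins that bind modified lipoproteins, spent plasma proteins, sugars of microbes and debris of dying cells, and carry them into the cell for breakdown. Macrophages of the brain borders, called CNS-associated macrophages (CAMs), are known for high levels of several of these receptors, while microglia, the macrophages of the brain tissue itself, carry less of most of them in the healthy brain. The 9 genes described here, of 32285 in the tables, were listed by symbol. They are Cd68, Cd36, Msr1, Colec12, Stab1, Cd163, Mrc1, Lyve1 and Cd93, and each was found in the tables of all 8 mice. In microglia of Arpc4ΔCx3cr1 mice, Cd36 and Colec12 were higher and Stab1 was lower than in control mice, each without overlap between the mice. There 46% of all 12731 genes tested differed between genotypes. In CAMs Lyve1 alone of the 9 passed the test, where 0.993% of 3122 genes did. Its call was lost in 2 of 13 alternative analyses and its sign changed in 1.

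CD45+ cells, a gate that takes in microglia and other leukocytes, were sorted as viable single cells from brains of 12-week-old littermates, tagged per mouse and pooled into 1 library that was read from the 3′ ends of transcripts. The 4 control mice carried Arpc4 fl/fl without Cre, and the 4 Arpc4ΔCx3cr1 (KO) mice carried Tg(Cx3cr1-Cre) Arpc4 fl/fl, in which a transgene driven by Cx3cr1 removes Arpc4, a subunit of the actin-branching Arp2/3 complex, from brain myeloid cells from the start of their development. The study names 1 KO mouse as female and left it out, but the labels do not say which one, so all 8 mice were used, and each was left out in turn. The tables held 19864 cells, of which 19863 passed the filters, with 5251527 to 12878691 unique molecular identifiers (UMIs, each standing for 1 captured RNA molecule) on genes per mouse.

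Cells were clustered without the 9 genes, and clusters were named from other markers. Microglia-like cells numbered 9239 in KO and 7801 in control mice, CAM-like cells 127 and 284, and monocyte-like cells 231 and 114. Microglia-like cells with at least 1 UMI of Ms4a7, a gene of CAMs, are called Ms4a7-positive here and numbered 2553 in KO and 216 in control mice. With each cell thinned to 1000 UMIs, Ms4a7 was found in 11.3 to 19.3% of microglia-like cells of KO mice, beside 0 to 13.3% of their T cell-like cells and higher in each of the 4 mice. In control mice it was found in 0.802 to 1.5% of microglia-like and 0 to 4.76% of T cell-like cells (median 1.39%, 21 to 47 cells per mouse). With so few T cell-like cells, this measure cannot set the Ms4a7-positive cells of control mice apart from background. Without thinning the shares were 19.9 to 34.5% and 3.57 to 16% in KO mice, and 2.14 to 3.35% and 0 to 9.52% in control mice. Values in CPM (counts per 1000000 UMIs on genes) are sums over the cells of a class in 1 mouse, so that a change per cell and a change in the mix of cells within a class cannot be told apart. Barcodes with at most 100 UMIs held Ms4a7 at 206 CPM.

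Several facts of the libraries bear on the results. Arpc4 lay at 132 to 146 CPM in microglia-like cells of KO mice and at 224 to 242 CPM in those of control mice, whereas in CAM-like cells it lay at 210 to 246 CPM in KO and 167 to 213 CPM in control mice. The counted 3′ ends need not cover the deleted exons. Microglia markers summed to 8769 to 12633 CPM in microglia-like cells of KO mice and to 22464 to 22774 CPM in those of control mice. The mouse KO1 stood apart, with 1432 of the 1503 cells of 1 cluster and hemoglobin genes at 1343 CPM in its microglia-like cells, and the mouse KO2 had 229 cells in the 3 clusters that held most control microglia. Xist, the transcript of the inactive X chromosome of female cells, stood at 1383 CPM in microglia-like cells of KO1 and at 3.65 to 13.2 CPM in those of the other 7 mice, so that KO1 alone was high in this transcript of females. The level was not used to regroup the mice, and values without KO1 are given where they change a result. The cluster highest in Ms4a7 had 1375 cells, 97.5% of them from KO mice. It had 4 hemoglobin genes and no microglia marker among its leading 10 genes, so its name rests on 3 of 11 microglia markers. Hemoglobin was uneven between mice. In Ms4a7-positive cells of KO mice its markers summed to 2.12 to 2514 CPM, with a median of 3.20 CPM. KO1 gave 298 of the cells of this cluster.

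The members lie on separate chromosomes, except for Mrc1 and Cd93. By the GENCODE vM21 annotation of mm10, Cd68 lies at chr11:69664213-69666153, Cd36 at chr5:17781690-17888801, Msr1 at chr8:39581685-39642673, Stab1 at chr14:31139013-31168641, Lyve1 at chr7:110850607-110863239 and Cd93 at chr2:148436640-148443563, all on the minus strand. Cd163 lies at chr6:124304656-124330527 and Mrc1 at chr2:14229392-14332057, on the plus strand. No member shares its strand with an overlapping gene, and Stab1 overlaps 1 gene of the other strand, Nt5dc2. The windows of 250 bases before the RefSeq start of Cd36 and Stab1, the pair of 5 members matched in the RefSeq table (GRCm38.p6) that changed in opposite directions in microglia-like cells, are shown 5′ to 3′ on the minus strand, at chr5:17835897-17836146 and chr14:31168642-31168891, with capitals for matches to the 6 motifs searched.
Cd36 promoter window: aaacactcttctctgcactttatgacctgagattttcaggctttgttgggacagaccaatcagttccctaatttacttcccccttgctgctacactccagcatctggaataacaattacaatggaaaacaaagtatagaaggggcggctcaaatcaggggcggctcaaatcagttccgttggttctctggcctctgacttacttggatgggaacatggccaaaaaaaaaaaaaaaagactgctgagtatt
Stab1 promoter window: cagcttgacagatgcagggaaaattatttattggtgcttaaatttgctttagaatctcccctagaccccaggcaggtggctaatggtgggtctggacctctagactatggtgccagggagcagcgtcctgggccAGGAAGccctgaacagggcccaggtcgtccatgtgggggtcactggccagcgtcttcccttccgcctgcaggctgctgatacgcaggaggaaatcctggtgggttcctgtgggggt
The motifs, searched on both strands, were those of AP-1 (TGANTCA, present in 6.75% of 32851 windows of this length), PU.1 (GAGGAAGT, 2.44%), the ETS core (AGGAAG, which the PU.1 motif contains, 29.5%), C/EBP (TTGCNNAAT, 2.11%), the TATA box (TATAAA, 12.4%) and the E-box (CACGTG, 6.02%). No match to these motifs was found in the Cd36 window, and the Stab1 window held 1 ETS core, as the capitals show. The Cd36 window lies within the gene span given above, ahead of an internal start, whereas the Stab1 window adjoins its span. Among the other members matched, the Mrc1 window held 3 ETS cores, the Cd68 window held 2 AP-1 motifs and the Cd163 window held none.

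Across the cell classes of control mice, each of the 9 genes had its highest mean level in CAM-like cells. Mrc1, the mannose receptor of macrophages, had 2087 ± 269 CPM (SD, n = 4 mice) in CAM-like cells, 89.6 ± 29.7 in monocyte-like cells and 19.1 ± 2.01 in microglia-like cells of control mice. Stab1, which encodes stabilin-1, had 870 ± 60.03 CPM in CAM-like cells, 149 ± 8.48 in microglia-like cells and 13 ± 6.28 in monocyte-like cells. The values of each class lay apart from those of the next for both genes. The scavenger receptor of hemoglobin-haptoglobin complexes, Cd163, stood at 279 ± 74.2 CPM in CAM-like cells and at 0.305 ± 0.152 CPM in microglia-like cells of control mice. The few Ms4a7-positive microglia-like cells of control mice lay between CAM-like and all microglia-like cells for Mrc1, at 150 ± 45.4 CPM. For Stab1, at 184 ± 17.7 CPM, they lay closer to the other microglia than to CAM-like cells. Their 174 to 210 CPM were still above the 135 to 153 CPM of Ms4a7-negative cells of control mice.

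Lyve1, a hyaluronan receptor of CAMs and lymphatic vessels, had 129 ± 41.7 CPM in CAM-like cells of control mice, 10 UMIs in all their microglia-like cells and no UMI in their monocyte-like cells. Cd93, a C-type lectin-like receptor also known from endothelium and stem cells, had 75.7 ± 15.6 CPM in CAM-like cells, 5.24 ± 4.08 in monocyte-like cells and 0.352 ± 0.196 in microglia-like cells, the last pair overlapping between mice. The class A receptor Msr1 had 119 ± 30.6 CPM in CAM-like cells and 3.72 ± 0.468 in microglia-like cells, and the collectin-like receptor Colec12 had 141 ± 66.8 and 3.13 ± 1.32. For both, the monocyte-like cells of control mice had a range that took in the level of microglia-like cells.

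Cd36, the class B receptor of oxidized lipoproteins and long-chain fatty acids, had 178 ± 31.0 CPM in CAM-like cells, 77.7 ± 27.1 in monocyte-like cells and 2.29 ± 1.22 in microglia-like cells of control mice, and these ranges did not overlap. Their Ms4a7-positive cells had 32.1 ± 29.4 CPM of Cd36 and 37.3 ± 14.8 CPM of Colec12. Cd68, a lysosomal glycoprotein of macrophages, differed least between these classes, with 549 ± 24.5 CPM in CAM-like cells, 438 ± 7.90 in microglia-like cells and 256 ± 84.4 in monocyte-like cells. The classes were named without these genes, and the differences between classes are given as a description.

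**Figure D1:**
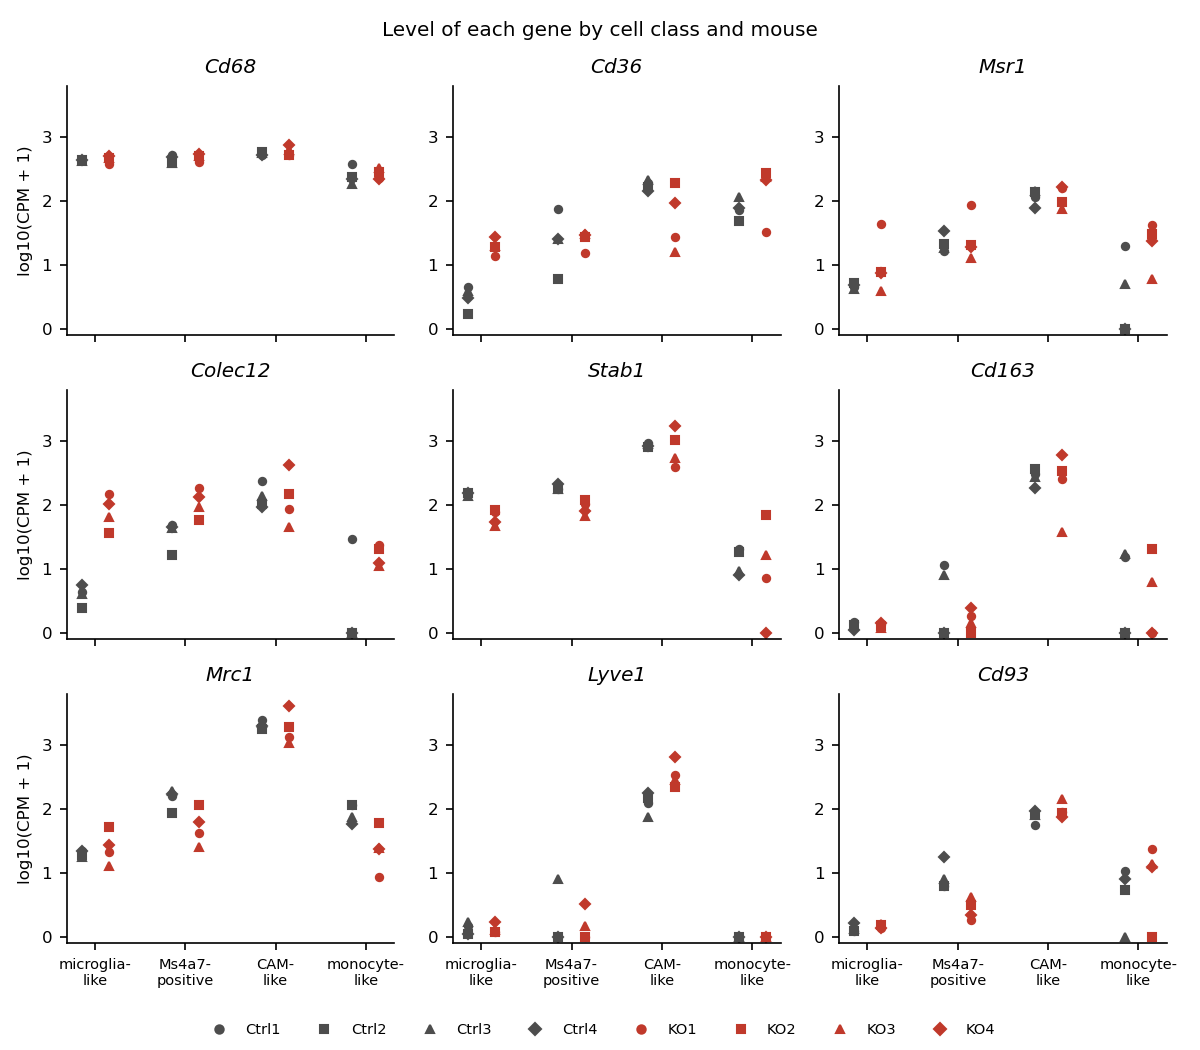
Level of each of the 9 genes as log10(CPM + 1), 1 point per mouse, in microglia-like cells, their Ms4a7-positive portion, CAM-like and monocyte-like cells, with control mice in grey, KO mice in red and the shape giving the mouse number. The mean of control mice is highest in CAM-like cells for each gene, and in microglia-like cells all red points lie above all grey points for Cd36 and Colec12 and below them for Stab1.

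T cell-like cells, which should lack these receptors, give the background of free RNA and of other cells caught in a droplet. In them, Stab1 lay at 75.5 to 93.9 CPM in control and 12.6 to 26.8 CPM in KO mice, and Colec12 at 0 to 8.88 and 0 to 54.5 CPM. Mrc1 lay at 3.92 to 179 CPM in control and 4.19 to 20.1 CPM in KO mice, beside CAM markers that summed to 19.6 to 615 and 0 to 12.6 CPM in the same cells. Cd36 spanned 0 to 25.6 and 0 to 26.8 CPM, Cd68 spanned 110 to 178 and 130 to 206 CPM, and Lyve1 had no UMI in T cell-like cells of either genotype. Microglia markers summed to 7247 to 8262 CPM in T cell-like cells of control mice and to 2988 to 4967 CPM in those of KO mice. This background was thus not independent of microglial RNA. The background of Stab1 and Colec12 moved with the genotype in the same direction as in microglia-like cells, and its part in their results was not tested.

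In microglia-like cells, 4 of the 6 members tested passed the test between genotypes, 3 of them higher and 1 lower in KO mice, where 46% of all 12731 genes tested passed it (edgeR, Benjamini-Hochberg adjusted p under 0.05). The other 3 members, Cd163, Lyve1 and Cd93, had too few UMIs to be tested. Beside the tests, CPM are scaled by the total times a normalization factor of edgeR.

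Among the receptors of lipids and lipoproteins, Cd36 had 13.4, 18.7, 19.8 and 27.5 CPM in microglia-like cells of KO1 to KO4 and 3.48, 0.692, 2.78 and 1.91 CPM in those of the control mice Ctrl1 to Ctrl4. Every KO mouse lay above every control mouse, KO4 being the highest and KO1 the lowest KO mouse. The difference was 3.28 on the log2 scale (SE 0.345, adjusted p = 2.26e-05), and it passed the test in all 15 alternatives, at 2.93 to 4.43. In T cell-like cells Cd36 had 10.8 ± 12.9 CPM in control and 9.75 ± 11.9 CPM in KO mice, and the empty droplets held 14.0 CPM, so control microglia-like cells lay under both.

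Colec12, known for uptake of oxidized lipoproteins and of sugars on microbes, had 156, 36.3, 67.8 and 105 CPM in KO1 to KO4 and 3.25, 1.38, 3.00 and 4.43 CPM in Ctrl1 to Ctrl4. KO1 was the highest and KO2 the lowest KO mouse, and still each lay far above the highest control mouse. On the log2 scale the difference was 4.93 (SE 0.508, adjusted p = 1.99e-05), and each of the 15 alternatives kept it past the threshold, at 4.56 to 7.01.

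Msr1, a trimeric receptor of modified low-density lipoprotein, had 43.9, 6.90, 3.15 and 6.78 CPM in KO1 to KO4 and 3.48, 4.15, 3.10 and 3.63 CPM in Ctrl1 to Ctrl4. KO1 alone stood far above the rest, and KO3 lay within the range of the control mice. The difference was 2.06 on the log2 scale (SE 0.765, adjusted p = 0.0473) with KO1 and 0.63 (adjusted p = 0.0591) without it. It failed the threshold in 7 of 15 alternatives, among them the omission of any 1 control mouse (adjusted p = 0.0913 to 0.109) and of the cluster highest in Ms4a7 (1.72, adjusted p = 0.141). The part that the Xist and hemoglobin levels of KO1 have in its Msr1 value was not tested.

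Stab1, a receptor of acetylated lipoprotein and of spent matrix proteins, went the other way, with 79.2, 84.4, 48.1 and 55.3 CPM in KO1 to KO4 against 150, 146, 131 and 145 CPM in Ctrl1 to Ctrl4. All KO mice lay below all control mice, whose values were close together. The difference was -1.10 on the log2 scale (SE 0.157, adjusted p = 0.000194) and ranged from -1.27 to -0.97 over the 15 alternatives, past the threshold in each. The fall of Stab1 stood beside that of the microglia markers given above.

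Mrc1 had 20.6, 52.5, 12.4 and 26.7 CPM in KO1 to KO4 and 20.2, 17.3, 16.3 and 19.9 CPM in Ctrl1 to Ctrl4, and the genotypes overlapped, with KO2 the highest mouse and KO3 the lowest. Its difference of 0.61 on the log2 scale (SE 0.354, adjusted p = 0.183) did not pass the test. The omission of 1 mouse moved it over 0.12 to 0.86, the highest value being that without KO3 (adjusted p = 0.0277). For Cd68 the values were 389, 472, 502 and 533 CPM in KO1 to KO4 and 424, 424, 415 and 425 CPM in Ctrl1 to Ctrl4. KO1 lay below the control mice and the other KO mice above them, and the difference was 0.17 (SE 0.0850, adjusted p = 0.133). With 1 mouse left out it ranged from 0.10 to 0.25, and it was largest without KO1.

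The receptors that mark CAMs stayed close to the limit of detection in microglia-like cells. Cd163 had 14 UMIs over all KO and 9 over all control mice, Lyve1 had 15 and 10, and Cd93 had 20 and 12. Differences in these genes were not detectable at this depth.

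**Figure D2:**
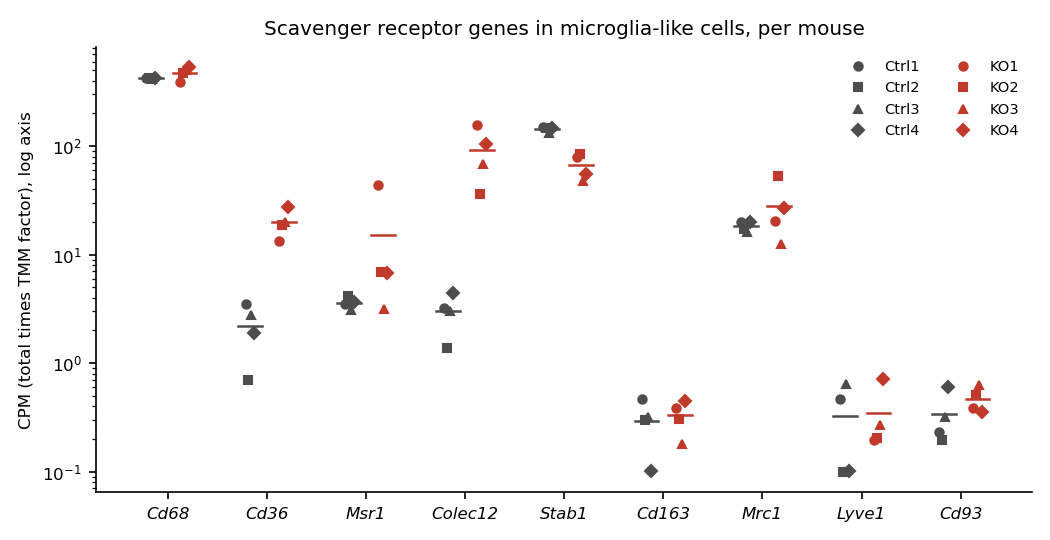
CPM of the 9 genes in microglia-like cells on a log axis, 1 point per mouse (control grey, KO red) with a line at each group's mean. Cd36 and Colec12 of KO mice lie above and Stab1 below all control mice, and 1 KO mouse, at 43.9 CPM, carries the mean of Msr1.

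Shares of cells with at least 1 UMI were compared after every cell had been thinned to 1000 UMIs, the median per mouse before thinning being 3718 to 4472.5 UMIs in microglia-like and 3750 to 5532 UMIs in T cell-like cells. Groups of mice did not overlap for 3 of the 9 members in microglia-like cells, where 22.6% of 19170 genes did not overlap. A UMI of Cd36 was found in 1.33, 1.54, 1.68 and 2.27% of the thinned microglia-like cells of KO1 to KO4, and in 0.147 ± 0.0392% (SD, n = 4) of those of control mice. Without thinning the means were 6.79 ± 1.88 and 0.563 ± 0.212%. In T cell-like cells the thinned share of Cd36 was 0 to 3.57% in KO mice (median 0%, 28 to 51 cells per mouse). This range took in the share of their microglia-like cells. With so few T cell-like cells, this measure cannot set the level itself apart from background.

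The share with a UMI of Colec12 was 5.01 ± 2.71% in KO and 0.178 ± 0.155% in control mice, beside 0 to 3.92% in T cell-like cells of KO mice, and Stab1 was found in 5.92 ± 1.67 and 13 ± 0.470%, beside 1.45 and 6.12% in T cell-like cells. The genotypes did not overlap for either gene. Msr1 was found in 3.99% of the microglia-like cells of KO1 and in 0.252 to 0.686% of those of the other KO mice, against 0.201 to 0.441% in control mice. In CAM-like cells and in monocyte-like cells the groups overlapped for all 9 members, where 2.69 and 2.55% of all genes did not overlap. With cells thinned to 2000 UMIs, 2 members of CAM-like cells ceased to overlap, and the share of all genes was not taken at that depth.

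**Figure D3:**
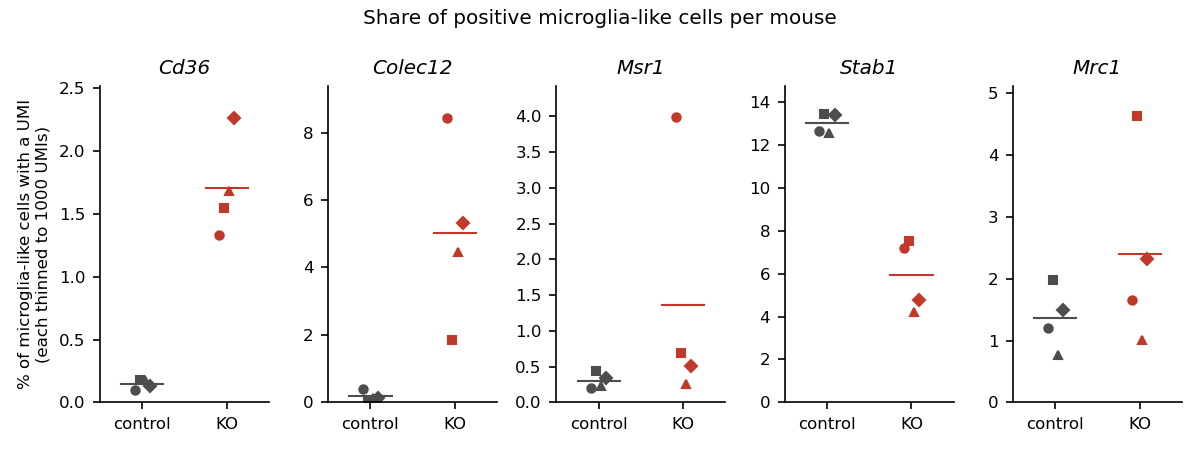
Percent of microglia-like cells with a UMI of 5 of the genes after thinning each cell to 1000 UMIs, 1 point per mouse, with lines at the group means and the shape giving the mouse number. Cd36 and Colec12 lie higher and Stab1 lower in all 4 KO mice, while Msr1 reaches 3.99% in KO1 alone.

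The levels also differed among clusters of microglia-like cells, which had been formed without these genes, so that what follows is a description. In KO mice, Colec12 was highest in the cluster led by the chemokine genes Ccl4 and Ccl3, with 278 ± 152 CPM (SD, n = 4 mice), and lay at 32.6 to 81.7 CPM on average in the 6 other clusters made mostly of KO cells. Cd36 was highest there as well, at 41.8 ± 17.7 CPM. Control cells of this cluster had 9.38 ± 18.8 CPM of Colec12 and 20.7 ± 13.3 CPM of Cd36 (n = 4 mice). In the largest cluster made mostly of KO cells, Cd36 had 16.1 ± 6.21 CPM in KO and 19.2 ± 16.1 CPM in control mice. Colec12 had 68.9 ± 22.1 and 30.9 ± 35.4 CPM in the same cells. Msr1 was highest in the cluster highest in Ms4a7, with 55.3 ± 48.6 CPM, followed by the cluster that KO1 made up, with 22.5 ± 16.1 CPM. In the latter, KO1 had 295 UMIs of Msr1 (38.2 CPM) in 1432 cells. KO2, KO3 and KO4 had 0, 2 and 5 UMIs (0, 27.4 and 24.3 CPM) in 18, 13 and 36 cells. In the cluster highest in Ms4a7, the control mice with at least 10 cells (n = 2) had means of 83.4 CPM of Msr1, 105 of Colec12 and 34.6 of Cd36. KO mice had 55.3, 81.7 and 29.6 CPM there. The control values rest on 1 to 6 UMIs per gene and mouse.

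Some KO cells fell into the 3 clusters that held most control microglia, where Colec12 lay at 0.474 to 1.33 CPM on average in control mice. In the 229 such cells of KO2, Colec12 had no UMI among 891599, which allows up to 3.36 CPM, while the other microglia-like cells of the same mouse had 39.1 CPM. Stab1 had 138 CPM in these cells of KO2 and 77.5 CPM in its others, and Cd36 had 2 UMIs, or 2.24 CPM, against 19.9 CPM. KO3 and KO4 had 46 and 16 such cells, likewise without a UMI of Colec12, which allows up to 16.2 and 48.1 CPM.

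Within KO mice, all 6 members tested were higher in Ms4a7-positive than in Ms4a7-negative microglia-like cells in each of the 4 mice. The edgeR fit without the mouse called 0 of the 6, where 2.93% of 11724 genes passed, with 3 members at an unadjusted p under 0.05 and 2 called by DESeq2. Both sums come from the same mouse, and with the mouse as a block all 6 passed, where 16.3% of these genes passed. For Mrc1 the negative and positive cells had 9.05 and 40.7 CPM in KO1, 31.5 and 115 in KO2, 8.89 and 24.9 in KO3, and 10.8 and 61.1 in KO4. Its blocked difference was 2.03 on the log2 scale (SE 0.113, adjusted p = 5.05e-12), against 2.00 (SE 0.507, adjusted p = 0.0719) without the block.

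Msr1 had 20.05 CPM in negative and 85.5 CPM in positive cells of KO1, and 0.857 to 2.78 and 12.2 to 19.6 CPM in those of the other 3 mice, with a blocked difference of 2.51 (SE 0.178, adjusted p = 2.35e-10). The remaining members differed less. Stab1 differed by 0.78 (SE 0.0644, adjusted p = 3.42e-09), Colec12 by 0.65 (SE 0.0687, adjusted p = 1.74e-07), Cd36 by 0.51 (SE 0.126, adjusted p = 0.00516) and Cd68 by 0.19 (SE 0.0432, adjusted p = 0.00301). Cd93 was not tested, with 19 UMIs in Ms4a7-positive and 1 UMI in Ms4a7-negative cells.

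For Mrc1, Msr1, Stab1 and Cd36 the differences were smaller without the cluster highest in Ms4a7. Without its cells the blocked differences were 1.07 for Mrc1, 1.91 for Msr1, 0.35 for Stab1, 0.84 for Colec12 and 0.23 for Cd68, each past the threshold, and 0.36 for Cd36 (adjusted p = 0.144). Cd36 also lost the call without KO2 (adjusted p = 0.0567) or KO3 (adjusted p = 0.0816). CAM markers summed to 28.1 to 65.4 CPM in Ms4a7-positive and 8.90 to 14.1 CPM in Ms4a7-negative cells of KO mice. Leaving out the cells with 2 or more CAM markers kept all 6 members past the threshold. Only 57 microglia-like cells of both genotypes had that many, so the omission says little on CAM transcripts in the rest.

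**Figure D4:**
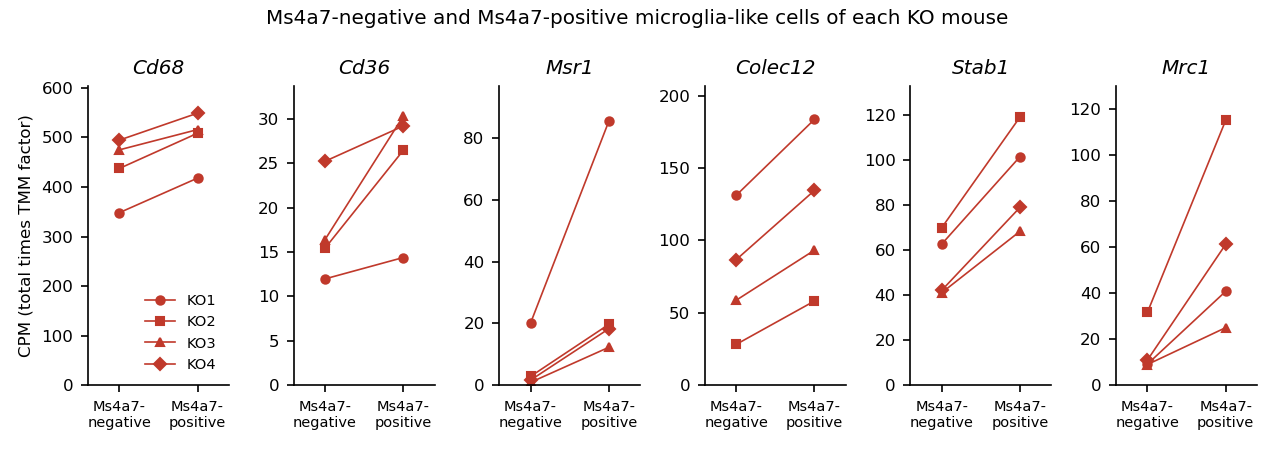
CPM of the 6 tested members in Ms4a7-negative and Ms4a7-positive microglia-like cells, with 1 line per KO mouse. Every line rises for each gene, most steeply for Mrc1 and Msr1, and KO1 is the highest line for Msr1 and Colec12.

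Between genotypes, the changes of Cd36, Colec12 and Stab1 were also present in Ms4a7-negative microglia-like cells, 3 of 6 members tested where 43.6% of 12445 genes passed. Cd36 differed by 4.06 on the log2 scale (SE 0.379, adjusted p = 8.32e-06), Colec12 by 5.49 (SE 0.549, adjusted p = 1.37e-05) and Stab1 by -1.33 (SE 0.154, adjusted p = 3.91e-05). For Msr1 the difference was 1.13 (adjusted p = 0.288) and turned to -0.70 (adjusted p = 0.106) without KO1. For Mrc1 it was 0.23 (adjusted p = 0.651) and turned to -0.42 (adjusted p = 0.0393) without KO2.

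In Ms4a7-positive cells, 3 of the 6 members tested passed the test, where 11.3% of 9488 genes did. Colec12 was higher by 1.82 (SE 0.416, adjusted p = 0.00789), with 59.2 to 187 CPM in KO and 14.9 to 47.5 CPM in control mice and no overlap, a call that was lost without Ctrl2 (adjusted p = 0.0638). Stab1 was lower, at 69.5 to 121 against 169 to 202 CPM, with a difference of -0.94 (SE 0.173, adjusted p = 0.00169). Mrc1 was lower too, at 41.4, 117, 25.3 and 62.1 CPM in KO1 to KO4 and 158, 82.2, 180 and 163 CPM in Ctrl1 to Ctrl4. KO2 lay above Ctrl2, and the difference of -1.22 (SE 0.382, adjusted p = 0.0496) lost the threshold in 7 of 14 alternatives, among them the omission of any 1 mouse other than Ctrl2 and KO2. CAM markers summed to 61.4 to 973 CPM in the Ms4a7-positive cells of control mice and to 28.1 to 65.4 CPM in those of KO mice, and their part in the result for Mrc1 was not tested.

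Cd36 had 25.6 ± 7.46 CPM in Ms4a7-positive cells of KO mice and 31.6 ± 29.5 CPM in those of control mice, a difference of -0.04 (SE 0.468, adjusted p = 0.984). The 30 to 76 Ms4a7-positive cells per control mouse leave this comparison less precise than that of the Ms4a7-negative cells.

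CAM-like cells, with 23 to 45 cells per KO and 45 to 112 per control mouse, had all 9 members past the filter on low counts. Of these, 1 passed the test, where 0.993% of 3122 genes did. Lyve1 had 360, 211, 292 and 611 CPM in KO1 to KO4 and 123, 142, 74.7 and 170 CPM in Ctrl1 to Ctrl4. Each KO mouse lay above each control mouse, KO4 highest and Ctrl3 lowest. The difference was 1.56 on the log2 scale (SE 0.299, adjusted p = 0.0135). It lost the threshold without Ctrl1 (1.55, adjusted p = 0.0637) or Ctrl3 (1.33, adjusted p = 0.101), and turned to -1.54 with coarser clusters, in which CAM-like cells were merged with cells of the cluster highest in Ms4a7.

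Cd36, with 28.8, 181, 15.4 and 88.6 CPM in KO1 to KO4 and 187, 161, 217 and 141 CPM in Ctrl1 to Ctrl4, was low in 3 of the 4 KO mice, and KO2 lay among the control mice. The difference was -1.31 (SE 0.393, adjusted p = 0.14) with KO2 and -2.07 (adjusted p = 0.00775) without it. Mrc1 had 1403, 1808, 1083 and 3844 CPM in KO1 to KO4 and 2397, 1754, 2207 and 1940 CPM in Ctrl1 to Ctrl4. KO4 was the highest of the 8 mice and KO3 the lowest, and the difference was -0.03 (SE 0.286, adjusted p = 0.980).

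Stab1 had 417 to 1621 CPM in CAM-like cells of KO mice, again with KO4 highest, and 796 to 937 CPM in those of control mice. Cd163 had 38.4 to 567 CPM, with KO3 lowest and KO4 highest, against 177 to 352 CPM. The differences of these members and of Cd68, Msr1, Colec12 and Cd93 lay between 0.05 and 0.37 on the log2 scale with adjusted p of 0.666 to 0.967. CAM markers summed to 3528 to 8931 CPM in KO and 4236 to 5057 CPM in control mice, and microglia markers to 3143 to 5531 and 5948 to 7645 CPM in the same cells.

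A test of the difference itself compared the genotype effect in CAM-like cells with that in microglia-like cells of the same mice. It called 5 of the 9 members, where 6.17% of 11176 genes were called, and the median over all genes was -0.19 on the log2 scale. For Cd36 the effect in CAM-like cells was lower by 4.69 (a difference of -4.69, SE 0.371, adjusted p = 7.95e-26), and for Colec12 the difference was -4.72 (SE 0.318, adjusted p = 8.05e-33). Both calls held in all 9 alternatives. Msr1 (-1.78, adjusted p = 0.000236), Stab1 (0.95, adjusted p = 0.000907) and Mrc1 (-0.72, adjusted p = 0.0377) were called as well, but not by DESeq2. Without KO1 Msr1 lost the call, without KO4 Stab1 did, and Mrc1 lost it in 6 of 9 alternatives. For Lyve1, whose counts in microglia-like cells were few, the difference was 1.28 (SE 0.757, adjusted p = 0.440), so that its rise in CAM-like cells was not shown to differ from its change in microglia-like cells.

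**Figure D5:**
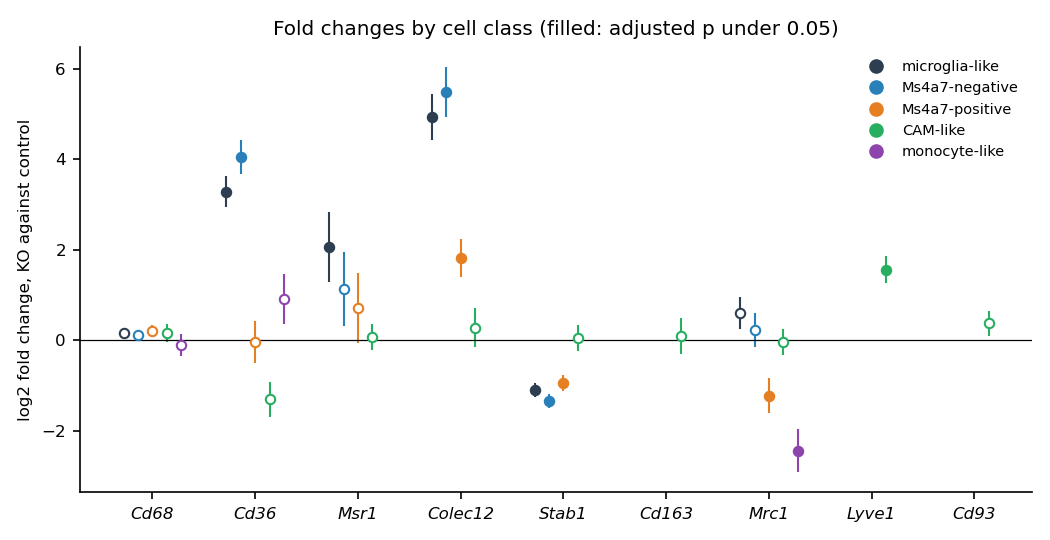
Difference between KO and control mice on the log2 scale, with its SE, for each gene and cell class, filled where the adjusted p of edgeR was under 0.05. Cd36 and Colec12 are up in microglia-like and Ms4a7-negative cells with CAM-like points near or below 0, Stab1 is down in the 3 microglial classes, and Lyve1 has a single, filled CAM-like point at 1.56.

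In monocyte-like cells, with 14 to 114 cells per KO and 20 to 36 per control mouse, 3 members could be tested and 1 passed, where 8.25% of 3129 genes did. Mrc1 had 7.05, 55.3, 21.7 and 21.5 CPM in KO1 to KO4 and 122, 122, 76.6 and 59.0 CPM in Ctrl1 to Ctrl4. The groups did not overlap, KO2 and Ctrl4 coming closest, and the difference was -2.44 (SE 0.475, adjusted p = 0.00593), from 23 UMIs in KO and 76 in control mice. DESeq2 gave it no adjusted p. Markers of CAMs, the class highest in Mrc1, summed to a median of 141 CPM in the monocyte-like cells of KO mice and of 288 CPM in those of control mice, with ranges that overlapped. Markers of dendritic cells summed to 147 to 618 CPM in KO and to 861 to 1507 CPM in control mice, and those of monocytes to medians of 2777 and 1387 CPM. The part of these markers in the result was not tested.

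Cd36 in monocyte-like cells had 30.5, 258, 219 and 204 CPM in KO1 to KO4 and 76.3, 51.8, 119 and 81.1 CPM in Ctrl1 to Ctrl4. KO1 was the lowest of the 8 mice and the other KO mice were the highest, and the difference was 0.92 (SE 0.546, adjusted p = 0.396) with KO1 and 1.42 (adjusted p = 0.00682) without it. Cd68 differed by -0.11 (adjusted p = 0.895). The other 6 members had too few UMIs to be tested in this class.

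Relatives of the members were counted in microglia-like cells from 3 lists. Of 15 further scavenger receptor genes, 7 could be tested, of which 3 rose and 2 fell, where 46% of all 12731 genes passed the test, with a median of 0.01 on the log2 scale beside -0.01 over all genes. Cd44, a hyaluronan receptor like Lyve1, rose from 2.34 to 28.0 CPM (3.63, adjusted p = 4.28e-07). Cxcl16, a chemokine whose membrane form takes up oxidized lipoprotein, rose from 55.9 to 334 CPM (2.58, adjusted p = 5.67e-08), and Olr1, a lectin-like receptor of the same ligand, from 0.917 to 3.33 CPM (1.80, adjusted p = 0.000235). The endocytic receptor Lrp1 fell from 316 to 182 CPM (-0.79, adjusted p = 1.21e-05) and the lipoprotein receptor Scarb1 from 24.8 to 19.4 CPM (-0.34, adjusted p = 0.0183).

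Of 6 lectin relatives of Mrc1 and Cd93, only Mrc2 could be tested, and its difference of 0.05 on the log2 scale did not pass the test. Both testable relatives of Cd68 among 4 genes of lysosome-associated membrane proteins rose, Lamp2 by 0.28 (adjusted p = 0.000929) and Lamp1 by 0.15 (adjusted p = 0.0372), again where 46% of all genes passed.

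The genes whose levels followed the members most closely were sought over 37 sums of mice and classes among 8827 genes, by Pearson's r of log2(CPM + 1). Sums of 1 mouse share a library, and those of 1 class share a cell type, so r is a description. Lyve1 lay closest to the C-type lectin genes Cd209f (r = 0.977) and Cd209g (0.957), Cd163 to the phospholipase gene Pla2g2d (0.911) and Cd209f (0.889), and Mrc1 to the endocytic adaptor gene Dab2 (0.906) and to Cd163 (0.873). Stab1 lay closest to Gas6 (0.928), a bridging ligand for dying cells, and to the purine receptor gene P2rx7 (0.918). Colec12 lay closest to the apolipoprotein gene Apoe (0.890) and to Ms4a7 (0.856), and Msr1 to Ms4a4a (0.871) and the complement gene C4b (0.824). For Cd36 the closest were Shtn1 (0.871) and the inflammasome gene Nlrc4 (0.813), for Cd68 Cd300c2 (0.955) and Hsd17b12 (0.954), and for Cd93 Serpinb8 (0.776) and Timd4 (0.767).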

How the data were processed

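Single-cell RNA sequencing (10x Genomics 3′ chemistry with 1 tag per mouse) was analysed for 8 mice of 1 pooled library, and tags, conditions and mouse numbers were taken from the labels. The authors aligned reads to mm10 with Cell Ranger (7.1.0 by the file headers, 6.1.2 by the submitters' processing notes) and deposited raw UMI counts per gene and cell of each mouse. The study's SoupX step was not used here, and its bulk sequencing and imaging were not analysed here. The members and gene lists were chosen with earlier results of these data known.

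Barcodes under 200 genes or over 20% mitochondrial UMIs were dropped. The log-normalized cells were clustered in Seurat 5.3.0 (9986 variable genes, 20 principal components, 20 neighbours, Louvain resolution 0.8), without the members, Ms4a7, Arpc4 and sex-linked genes. Clusters were named from markers that hold no member, by limits (1 on the log2 scale, a prior of 10 CPM, at least 3 markers) taken over from earlier work in which they were set after clusters had been seen, and 2 clusters of low UMI count stayed unnamed. No doublet caller was run. Tags can show doublets between mice but not those of cells from the same mouse. In each mouse, 98.9 to 100% of the cells were led by its own tag, a check that excludes doublets of neither kind.

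UMIs were summed per mouse and class with at least 10 cells and compared with edgeR 4.0.16 in R 4.3.3 over all genes (quasi-likelihood test after filterByExpr and TMM scaling, threshold of 0.05 on the p adjusted by Benjamini-Hochberg), a script tested on simulated data. CPM are scaled by the total alone for levels between classes, clusters and T cell-like cells, and by the total times the TMM factor beside a test. Classes were compared in 1 fit with an interaction term and the mouse as a block. Alternatives were DESeq2 1.42.0, no filter, the replicate block, resolution 0.4, 10% ambient RNA subtracted in proportion to droplets with at most 100 UMIs, other cell limits and the omission of each mouse, and those that leave out the cluster highest in Ms4a7 or that combine the block with another choice were added after seeing the data. Mouse numbers pair nothing between genotypes (correlations of deviations from -0.0679 to -0.00693 over the 4 numbers), whereas the Ms4a7-positive and Ms4a7-negative sums come from the same mouse. The text names all members, the 3 largest rises and falls of each list of relatives past the threshold, and the 2 genes most like each member among those with a mean of at least 10 CPM. Shares with 4 mice per group were given no test, and limits from a count of 0 use 3 counts and cover counting error only. Figures and tables were made with Python 3.11.15, numpy 2.4.6, pandas 2.3.3 and matplotlib 3.10.9.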

Additional observations from a re-analysis of the deposited data

Results flagged for a closer look

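Among 70 groups of 4 mice, 7 had 1 mouse far from the others, where chance gives about 5%. Msr1 was the widest case, at 43.9 CPM in microglia-like cells of KO1 beside 6.90 CPM in the next KO mouse, and at 87.0 beside 20.03 CPM in Ms4a7-positive cells. The others were single high values of Lyve1 in microglia-like cells (KO4, 0.713 beside 0.270 CPM), Colec12 in monocyte-like cells (Ctrl1, 30.5 beside 0 CPM) and, in Ms4a7-positive cells of control mice, Stab1 (Ctrl4, 202 beside 174 CPM), Lyve1 (Ctrl3, 6.79 beside 0 CPM) and Cd93 (Ctrl4, 15.8 beside 6.79 CPM). Those of Lyve1, Colec12 and Cd93 rest on 2 to 8 UMIs each.

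The genotype effect differed between CAM-like and microglia-like cells, by a test of the difference itself, for Cd36 (-4.69 on the log2 scale, CAM-like minus microglia-like), Msr1 (-1.78), Colec12 (-4.72), Stab1 (0.95) and Mrc1 (-0.72). Of all 11176 genes tested, 6.17% were called. Cd36 and Colec12 kept the call in all 9 alternatives. Mrc1 lost it in 6 of the 9, and Msr1 and Stab1 in 2 each.

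In the 2 unnamed clusters of low UMI count, which entered no comparison, Colec12 had a mean of 155 CPM in KO mice (97.6 to 312 CPM) and 0 to 5.16 CPM in control mice, without overlap.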

How the results depend on the processing

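Of 694 alternative values of single members, 546 kept their direction and their side of the threshold (or moved by less than 1 SD), and 34 changed sign. In microglia-like and Ms4a7-negative cells the calls of Cd36, Colec12 and Stab1 held in all 15 alternatives each. Few CAM-like and monocyte-like cells per mouse limit what those classes can show, and the cause of the moves below was not tested. DESeq2 gave no adjusted p for Mrc1 in monocyte-like cells.

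In CAM-like cells 31 genes were called, 120 without a filter, 1001 at resolution 0.4, and 1 to 50 with 1 mouse left out, fewest without Ctrl3 (9 without Ctrl1, 15 without Ctrl2, 19 without Ctrl4, 50 without KO2). In monocyte-like cells 258 were called, and 127 to 264 with 1 mouse left out (127 without KO3, 136 without Ctrl2). In Ms4a7-positive cells 1071 were called between genotypes, and 699 to 1154 with 1 mouse left out (699 without Ctrl2). The test of the difference between classes called 690 genes and DESeq2 420. Members whose shares did not overlap went from 0 to 2 in CAM-like and to 1 in Ms4a7-positive cells when thinned to 2000 UMIs, and to 1 and 2 without thinning. The share of all genes was not taken at these settings, so these counts are a description.

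Between Ms4a7-positive and Ms4a7-negative cells 343 genes were called, 522 without a filter, 26 at resolution 0.4, 625 with at least 2 Ms4a7 UMIs, 1657 for the cluster highest in Ms4a7 against the rest, and 24 without that cluster. With the mouse as a replicate block 1915 were called, 1892 without cells with 2 or more CAM markers, 1868 with ambient RNA subtracted and 703 without that cluster. With 1 mouse left out the counts were 71 to 1681, of which 71 (without KO4) to 734 (without KO1) came without the block, and with it 1681 without KO1, 1382 without KO2, 1473 without KO3 and 1374 without KO4.

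Between genotypes, where the replicate numbers pair nothing, the replicate block called 5522 genes in microglia-like, 5064 in Ms4a7-negative, 1048 in Ms4a7-positive, 281 in monocyte-like and 11 in CAM-like cells.

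Changes of sign on the log2 scale were as follows. In CAM-like cells at resolution 0.4 the values were -0.27 for Cd68, -1.04 for Msr1, -0.87 for Colec12, -2.06 for Stab1, -3.08 for Cd163, -1.54 for Lyve1 and -2.37 for Cd93. Without a filter they were -0.0019 for Msr1 and -0.0366 for Stab1, and with the replicate block -0.11 for Stab1 and -0.10 for Cd163. With 1 mouse left out the CAM-like values ranged from -0.15 to 0.26 for Msr1, -0.60 to 0.62 for Colec12, -0.40 to 0.29 for Stab1, -0.42 to 0.48 for Cd163 and -0.54 to 0.18 for Mrc1. The same ranges were -0.25 to 0.14 for Cd68 in monocyte-like cells, -0.70 to 1.52 for Msr1 and -0.42 to 0.43 for Mrc1 in Ms4a7-negative cells, -0.48 to 0.59 for Cd36 in Ms4a7-positive cells, and -0.19 to 0.0144 for Cd68 and -0.49 to 0.0133 for Cd93 in the test between classes. Cd36 in Ms4a7-positive cells was 0.0165 without a filter, 0.10 at resolution 0.4 and 0.12 without the cluster highest in Ms4a7, and Colec12 was -0.11 in that cluster against the rest.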

Other observations

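Cd93 had too few UMIs to be tested in microglia-like cells, yet its counts were uneven between their portions. In KO mice 19 of its 20 UMIs came from Ms4a7-positive cells, and in control mice 11 of 12 did. Without the filter on low counts, edgeR gave a difference between Ms4a7-positive and Ms4a7-negative cells of KO mice of 4.99 on the log2 scale (SE 0.874, adjusted p = 0.00289), a value that depends on the prior count. Without the filter it also gave a lower level in Ms4a7-positive cells of KO than of control mice, by -2.23 on the log2 scale (SE 0.697, adjusted p = 0.0209), at 0.845 to 3.22 CPM against 4.98 to 15.8 CPM, from 19 and 11 UMIs.

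The share of thinned cells with UMIs of 2 or more of the 9 genes was 34.4 to 84.6% in CAM-like cells of KO mice and 56.5 to 74.8% in those of control mice. In microglia-like cells it was 5 to 7.24% in KO and 5.05 to 6.22% in control mice, beside 0 to 2.22% and 0 to 7.14% in T cell-like cells.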
